A study of Mus musculus with 18 samples.

Results

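Neuropeptide precursors of the tachykinin, opioid and other sensory families (Tac1, Tac2, Penk, Pdyn, Nts, Grp and Calca) were described in the oculomotor nucleus (OMN) and the cervical spinal cord of mice. They were chosen by name, as every probe set whose only gene symbol in the array's annotation is 1 of these 7. This gave 6 probe sets, 1 each for 6 genes, of 22626 on the array. Calca was not analysed here. After the probe sets with the lowest signals had been left out, 5 of the 6 were among the 13575 tested, and Pdyn was not.

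Total RNA was hybridised to Affymetrix 430A arrays, and the values are scaled MAS5 signals, a probe set's brightness on a linear scale. The groups were mutant oculomotor nucleus at 10 weeks, control oculomotor nucleus at 10 weeks, mutant oculomotor nucleus at 6 weeks, and the spinal cord of the same 3 conditions, with 3 arrays each. The study belongs to research on amyotrophic lateral sclerosis (ALS), which destroys spinal motor neurons and largely spares those that move the eyes, and it compared the spared region with the affected one. The labels call every sample, controls included, an ALS model. Beyond that they give only mutant or control and the age: they name neither the mutation, the strain nor the genotype of the controls, and they do not say whether animals were pooled or whether each array is a separate animal. The design text calls the 3 replicates of a group independent without saying of what. The spread behind each p-value is that of these samples alone, which may be technical, and the small number of arrays bounds the precision. There was no control group at 6 weeks.

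Replicate 1 of control spinal cord is not used here, since its signals correlated with those of the other arrays at 0.0104 to 0.0143 over the probe sets, against 0.957 to 0.985 among the 17 arrays used. Its group then held 2 arrays. Median signals of the 17 arrays ran from 207 to 226. The labelled regions were checked against their markers. In all 3 conditions 6 spinal Hox genes were lower in the oculomotor nucleus, while the midbrain transcription factor genes Foxa2 and Irx2 were higher. Phox2a, a defining gene of oculomotor motor neurons, lay between 33.4 and 69.7 in the oculomotor nucleus and between 38.5 and 84.6 in spinal cord and was under the filter, so it did not mark the region.

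Neuropeptides are cut from larger precursor proteins, stored in dense core vesicles and released to act on G protein-coupled receptors. Tac1 encodes substance P and neurokinin A, Tac2 (the mouse name of the neurokinin B gene) encodes neurokinin B, Penk encodes the enkephalins and Pdyn the dynorphins, while Nts encodes neurotensin and Grp gastrin-releasing peptide. In the mouse spinal cord these genes are best known from interneurons of the dorsal horn, which handle pain, itch and touch. They are also expressed in many brain regions.

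Tac2, Penk and Nts were lower in the oculomotor nucleus in every condition, and Tac1 in none. The DNA just before the start of Tac2, Nts and Tac1 is shown, to set a pair with the regional difference beside a gene without it, and Penk is named only. Each window runs from 250 bases before the annotated start to 50 after it, is printed 5′ to 3′ on the gene's strand, and comes from RefSeq for assembly GRCm38.p6. Capitals mark matches to the searched motifs: TGACG and TGACNTCA (the cyclic AMP response element, as its core and in full), TGANTCA (the AP-1 site), CACGTG (an E-box) and TATAAA (the TATA box), on either strand. The full cyclic AMP motif holds the core where its N is G. Tac2 lies at chr10:127724228-127724527 on the plus strand, Nts at chr10:102490369-102490668 on the minus strand and Tac1 at chr6:7554811-7555110 on the plus strand.
Tac2: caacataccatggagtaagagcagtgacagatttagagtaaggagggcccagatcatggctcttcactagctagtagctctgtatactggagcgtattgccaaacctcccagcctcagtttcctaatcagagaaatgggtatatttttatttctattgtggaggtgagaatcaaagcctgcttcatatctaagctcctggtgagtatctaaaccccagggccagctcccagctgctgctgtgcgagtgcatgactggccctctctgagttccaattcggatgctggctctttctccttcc
Nts: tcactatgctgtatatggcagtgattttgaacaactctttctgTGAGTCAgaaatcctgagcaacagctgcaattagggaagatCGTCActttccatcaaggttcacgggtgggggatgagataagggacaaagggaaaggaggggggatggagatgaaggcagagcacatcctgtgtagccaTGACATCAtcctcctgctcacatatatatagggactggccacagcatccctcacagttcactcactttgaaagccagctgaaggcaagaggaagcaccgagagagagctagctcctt
Tac1: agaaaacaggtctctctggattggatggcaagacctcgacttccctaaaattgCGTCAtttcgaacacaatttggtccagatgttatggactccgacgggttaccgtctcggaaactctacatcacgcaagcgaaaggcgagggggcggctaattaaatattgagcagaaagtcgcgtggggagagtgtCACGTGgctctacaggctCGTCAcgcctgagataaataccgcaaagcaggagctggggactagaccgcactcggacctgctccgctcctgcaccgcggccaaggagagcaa
The Tac2 window held none of the 5 motifs. The Nts window held TGAGTCA (a form of TGANTCA) beginning 207 bases before the start, TGACG on the other strand at 166 and TGACATCA (a form of TGACNTCA) at 67. The Tac1 window held TGACG on the other strand, at 197 and at 43 bases before the start, and CACGTG at 61. Of 32851 such windows in the mouse table, 20.8% held TGACG, 8.83% TGACNTCA, 7.81% TGANTCA, 7.15% CACGTG and 13.6% TATAAA. A match is a description of the letters and no sign of a factor at work.

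Among the tachykinins, Tac2 had by far the largest regional difference of the precursors and Tac1 had none that passed the test. Tac2 signals were 93.2, 118.7 and 58.1 in 10-week mutant oculomotor nucleus, against 1689, 1142 and 1076 in 10-week mutant spinal cord. In controls they were 534, 472.5 and 183 in the oculomotor nucleus, against 1127 and 1583 in spinal cord. In 6-week mutants they were 82.7, 186 and 70.4 in the oculomotor nucleus, against 922, 1309.9 and 989.8 in spinal cord. No oculomotor array reached any spinal cord array, and the 2 highest oculomotor signals both came from controls. Within a condition, separation of the regions was common, with 36.0% of all probe sets in 10-week mutants, 46.0% in controls and 37.4% in 6-week mutants. Separation of all 9 oculomotor from all 8 spinal cord arrays is a stricter demand, and its share was not counted. In whole tissue, fewer cells of a type and less RNA per cell cannot be told apart.

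The log2 fold change of Tac2, oculomotor nucleus over spinal cord on the log2(signal + 25) scale, was -3.54 ± 0.33 (SE) in 10-week mutants, which is 11.6-fold lower (limma, adjusted p = 3.97e-07). It was -1.82 ± 0.37 in controls, 3.52-fold lower (adjusted p = 0.00231), and -3.07 ± 0.33 in 6-week mutants, 8.40-fold lower (adjusted p = 2.20e-06). Here and below each group has n = 3 arrays, except control spinal cord with n = 2, and a call means an adjusted p under 0.05 over all 13575 probe sets. Ordered from the largest fall, Tac2 was number 9 of the 13575 in 10-week mutants, 35 in controls and 12 in 6-week mutants. Because the mutant oculomotor signals were low, the size depends on the offset: with one 4 times larger the values were -2.87, -1.62 and -2.49, all still called.

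Tac1 signals were 1780.3, 1007 and 1047 in 10-week mutant oculomotor nucleus, against 1105, 1064 and 1214 in 10-week mutant spinal cord. In controls they were 1052, 1642 and 1298 in the oculomotor nucleus, against 1704 and 1467 in spinal cord. The arrays of these regions overlapped in both. In 6-week mutants Tac1 stood at 1584, 1546 and 1786 in the oculomotor nucleus, against 1232, 874 and 1343 in spinal cord, with every oculomotor array above every spinal cord array. The log2 fold changes were 0.13 ± 0.19 in 10-week mutants (adjusted p = 0.683), -0.27 ± 0.21 in controls (adjusted p = 0.465) and 0.52 ± 0.19 in 6-week mutants (adjusted p = 0.0554, 95% interval 0.12 to 0.92), none of them called. At 6 weeks the value did pass with quantile normalization (adjusted p = 0.0450), in a fit of those arrays alone (0.0332) and without 6-week mutant spinal cord replicate 3 (0.0399).

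**Figure D1:**
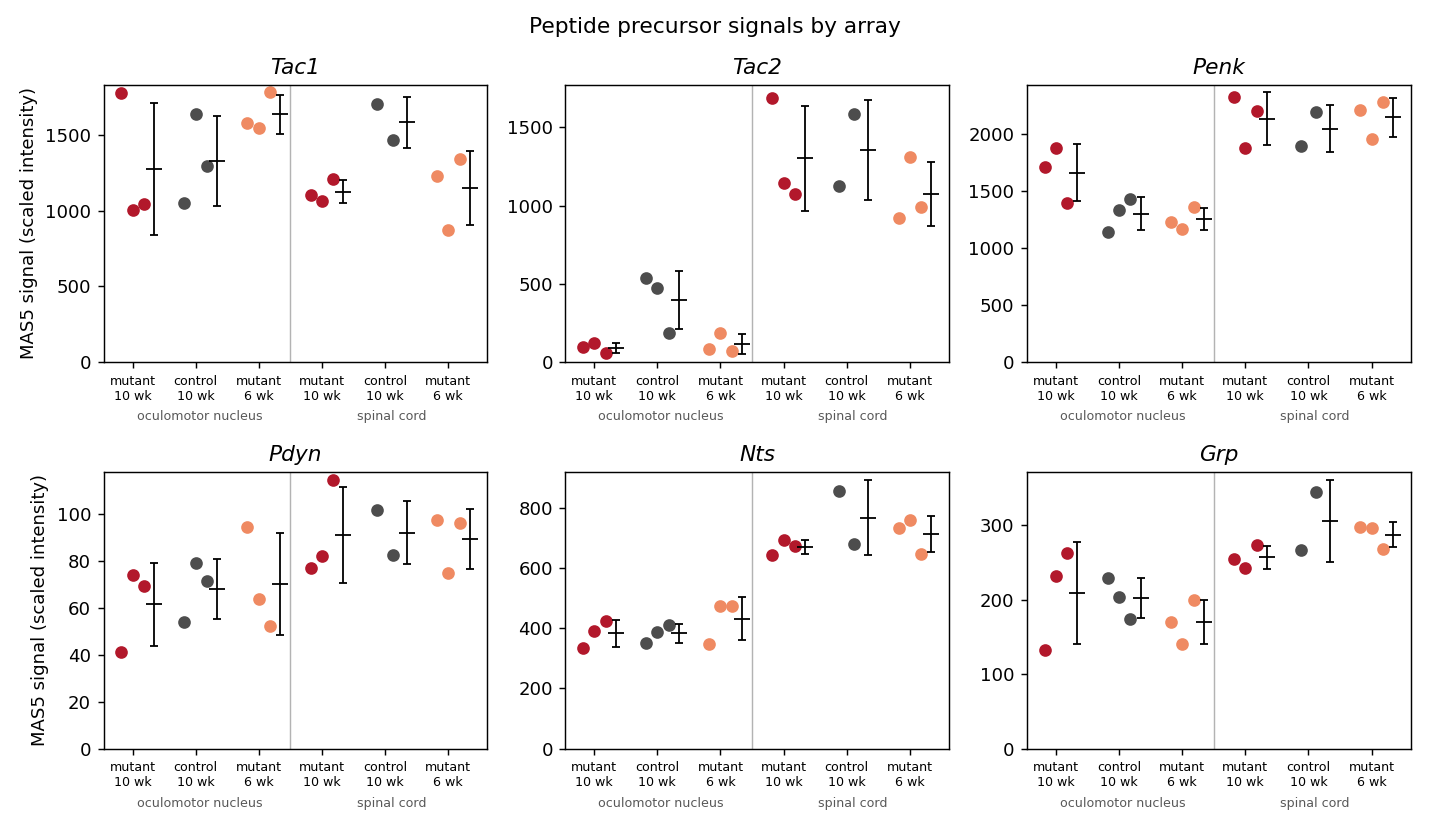
MAS5 signals (scaled intensity, linear axis from 0) of the 6 precursors on each of the 17 arrays, with a panel per gene, oculomotor groups left of the line and spinal cord groups right of it. Points are arrays and bars are the group mean ± SD; Tac2 in the mutant oculomotor nucleus lay between 58.1 and 186, and in spinal cord of all conditions between 922 and 1689.

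Of the opioid precursors, Penk was lower in the oculomotor nucleus in every condition, by less than Tac2. Its signals were 1712, 1876 and 1389.7 in 10-week mutant oculomotor nucleus, against 2325, 1872 and 2203 in 10-week mutant spinal cord, so the highest oculomotor array overlapped the lowest spinal one. In controls they were 1143, 1332 and 1426 in the oculomotor nucleus, against 1897 and 2188 in spinal cord. In 6-week mutants they were 1226, 1168 and 1357 in the oculomotor nucleus, against 2209.8, 1951 and 2275 in spinal cord. In these last conditions the arrays of the regions did not overlap.

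The log2 fold change of Penk was -0.36 ± 0.12 in 10-week mutants (adjusted p = 0.0418), -0.64 ± 0.13 in controls (adjusted p = 0.00297) and -0.77 ± 0.12 in 6-week mutants (adjusted p = 1.42e-04). The call in 10-week mutants was lost with median centring (adjusted p = 0.0826), without a filter (0.0595), without a trend in the variance (0.0596), in a fit of those arrays alone (0.0747) and when mutant oculomotor replicate 1 (0.0723) or 3 (0.205) or mutant spinal cord replicate 1 (0.153) or 3 (0.103) was left out. In controls it was lost without spinal cord replicate 3 (0.0556).

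Pdyn signals were 41.3, 73.8 and 69.1 in 10-week mutant oculomotor nucleus, against 76.9, 81.8 and 114 in 10-week mutant spinal cord. They were 53.8, 78.9 and 71.4 in control oculomotor nucleus, against 101.5 and 82.4 in control spinal cord. In 6-week mutants they were 94.3, 63.6 and 52.4 in the oculomotor nucleus, against 97.2, 74.6 and 96.2 in spinal cord. These signals are low, and those of the regions overlapped in 6-week mutants and not in the other conditions. In a fit without the filter the log2 fold changes were -0.43 ± 0.21, -0.33 ± 0.24 and -0.28 ± 0.21 in 10-week mutants, controls and 6-week mutants, and none was called (adjusted p = 0.218, 0.507 and 0.429).

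Nts was lower in the oculomotor nucleus in every condition, with arrays that never overlapped between regions. Its signals were 335, 389 and 423 in 10-week mutant oculomotor nucleus, against 642.5, 691 and 674 in 10-week mutant spinal cord. In controls they were 349, 388.5 and 411 in the oculomotor nucleus, against 855 and 679 in spinal cord. In 6-week mutants they were 349, 472 and 475 in the oculomotor nucleus, against 734, 761 and 647 in spinal cord. The highest oculomotor array of all, at 475, lay below the lowest spinal cord array, at 642.5. The share of all probe sets so separated over all conditions was not counted. The log2 fold change was -0.77 ± 0.13 in 10-week mutants (1.71-fold lower, adjusted p = 3.14e-04), -0.95 ± 0.15 in controls (1.93-fold lower, adjusted p = 1.72e-04) and -0.70 ± 0.13 in 6-week mutants (1.63-fold lower, adjusted p = 6.38e-04).

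Grp, whose peptide drives itch signals in the mouse dorsal horn, was lower in the oculomotor nucleus at 6 weeks and did not pass the test at 10. Its signals were 132, 231 and 263 in 10-week mutant oculomotor nucleus, against 254, 242 and 273 in 10-week mutant spinal cord, and these overlapped. In controls they were 229, 203.5 and 174 in the oculomotor nucleus, against 266 and 344 in spinal cord. In 6-week mutants they were 169.5, 141 and 199 in the oculomotor nucleus, against 297.5, 296 and 268 in spinal cord, with no overlap in either of these conditions. The log2 fold change was -0.31 ± 0.19 in 10-week mutants (adjusted p = 0.257), -0.54 ± 0.21 in controls (adjusted p = 0.102) and -0.69 ± 0.19 in 6-week mutants (adjusted p = 0.0113). The call at 6 weeks was lost without 6-week mutant oculomotor replicate 2 (adjusted p = 0.0566).

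In numbers, 3 of the 5 tested precursors (Tac2, Penk and Nts) were called lower in the oculomotor nucleus in 10-week mutants, where 9.99% of all probe sets were called lower and 19.3% in either direction. The same 3 genes were called lower in controls, with a background of 6.94% lower and 13.6% in all. In 6-week mutants 4 of 5 were called lower, those 3 and Grp, beside 11.7% lower and 23.9% in all. No precursor was called higher, as 9.30% of all probe sets were in 10-week mutants, 6.62% in controls and 12.2% in 6-week mutants. Tac2, Penk and Nts were thus called lower in all 3 conditions, as 4.40% of all probe sets were. The median log2 fold change of the 5 was -0.36, -0.64 and -0.70 in 10-week mutants, controls and 6-week mutants, beside 0.00, 0.01 and 0.03 over all probe sets.

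**Figure D2:**
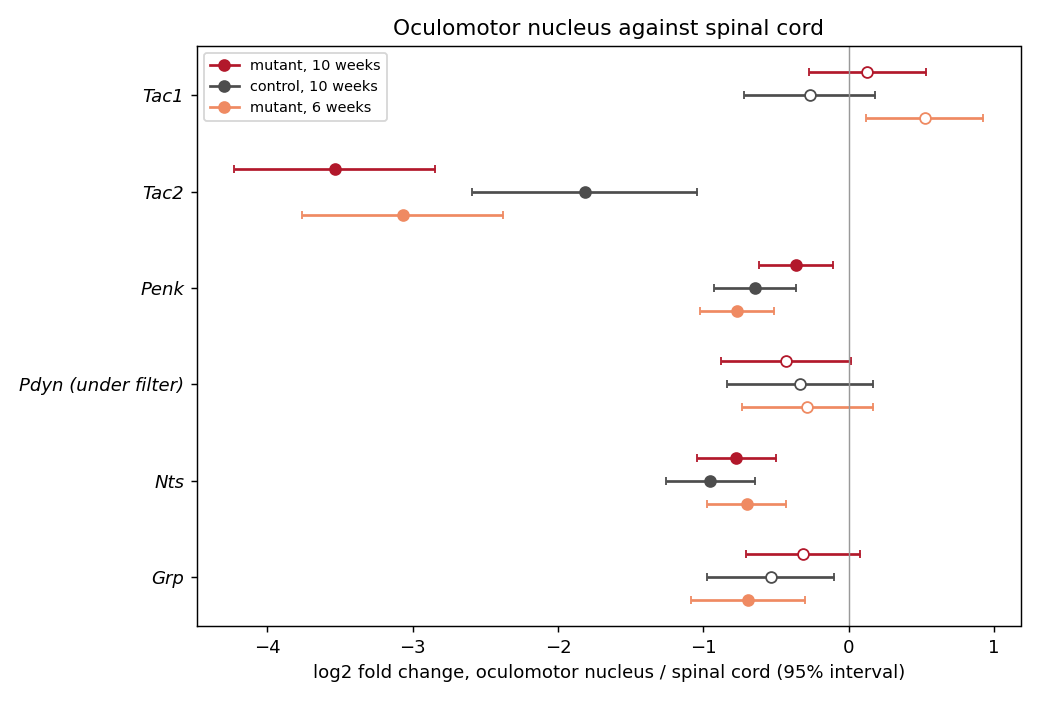
Log2 fold change, oculomotor nucleus over spinal cord, of each precursor (points) with its 95% interval in 10-week mutants, controls and 6-week mutants; filled points were called. All 3 Tac2 values lie left of -1, those of Nts between -0.95 and -0.70, and those of Tac1 on both sides of 0.

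Markers of other cell types differed between the regions as well. Of 19 genes listed as markers of dorsal horn neurons, 11 were tested, and in 10-week mutants 4 stood higher in the oculomotor nucleus and 4 lower at an adjusted p under 0.05, with the same counts in controls and 5 and 5 in 6-week mutants. The summed signal of that list was higher in the oculomotor nucleus (16216 to 16949 against 14507 to 15004 in 10-week mutants, 16888 to 17474 against 15080 to 15624 in controls, 16204 to 16319 against 13904 to 14740 in 6-week mutants). Among those called, Gad2, which makes the transmitter GABA and is widespread in the midbrain, was higher, by 1.67, 1.49 and 1.24 in those conditions, and Npy, a peptide precursor described further on, was lower. Lbx1, a transcription factor gene that defines dorsal horn neurons, was lower, by a log2 fold change of -1.54, -1.77 and -1.57. Tlx3, another such gene, was under the filter, at 49.4 to 105.7 in the oculomotor nucleus against 130.5 to 228 in spinal cord. Motor neuron markers were lower too, 8 of 8 tested in 10-week mutants and 7 of 8 in the other conditions, with sums of 3695 to 5151 in the oculomotor nucleus against 10053 to 11641 in spinal cord. Meningeal and fibroblast markers were lower as well, 8 of 9 tested in each condition, with sums of 11988 to 19065 in the oculomotor nucleus against 16850 to 21622 in spinal cord. Of 13 markers of primary sensory neurons 4 were tested, with 1 called higher and 1 lower in controls and in 6-week mutants and 1 higher and 2 lower in 10-week mutants, and the list summed to 2660 to 3599 in the oculomotor nucleus against 4540 to 10186 in spinal cord. Most of that sum came from a pair of genes not particular to sensory neurons: Pmp22, a gene of peripheral myelin, averaged 1125 to 1196 in the oculomotor groups against 3860.5 to 7729 in the spinal cord groups and was called lower in all 3 conditions, and the gene called higher was Th, which is also in the dopamine list. The other gene called lower in 10-week mutants was Isl2 (-0.75, limma, adjusted p = 0.00166), which is also in the motor neuron list. Of the defining genes of the sensory neurons, which also make substance P, Scn10a and P2rx3 stayed at or under 55.0 on all arrays. Avil stayed at or under 34.9 but for 105 on 1 mutant spinal cord array. Scn11a, under the filter, averaged 61.5 in 10-week mutant oculomotor nucleus against 101 in spinal cord. Its means were 36.8 against 70.8 in controls and 75.6 against 53.1 in 6-week mutants. The part of these cell types in the precursor values was not tested.

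Between genotypes at 10 weeks, Tac2 was the precursor that changed. In the oculomotor nucleus its signals of 93.2, 118.7 and 58.1 in mutants stood against 534, 472.5 and 183 in controls (90.0 ± 30.4 and 396 ± 188, SD, n = 3 each). These are the oculomotor arrays of the regional comparisons again. Every mutant array lay below every control array, and control replicate 3 stood nearest to the mutants. The log2 fold change was -1.78 ± 0.33, or 3.45-fold lower (limma, adjusted p = 0.0104, 95% interval -2.48 to -1.09). It was the lowest log2 fold change of the 13575 probe sets. Its size depends on the offset, since the mutant mean log2 signal of 6.81 lay under the filter limit of 7.38. With an offset 4 times larger it was -1.31 (limma, adjusted p = 0.0134). So 1 of 5 precursors was called, beside 1.47% of all probe sets, 0.435% of them lower, and 24.0% with arrays that did not overlap. The call was lost without control replicate 1 (-1.52, adjusted p = 0.0656), control replicate 2 (-1.60, 0.0514) or mutant replicate 3 (-1.57, 0.0524).

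The oculomotor arrays with the most pituitary RNA were mutant replicate 2, with a growth hormone (Gh) signal of 13207 and a prolactin (Prl) signal of 2209, and control replicate 3, with 2934 and 3008. Mutant replicate 2 also had the highest Tac2 signal of the mutants, and control replicate 3 the lowest of the controls. Without both arrays the Tac2 difference was -2.41 (limma, adjusted p = 0.00290). Leaving out the highest mutant and the lowest control signal had to widen it, so this cannot show whether pituitary RNA matters. The regional Tac2 difference in controls went from -1.82 to -1.37 in the same alternative. The part of pituitary RNA in these values was not tested. The pituitary list summed to 2674 to 26081 in mutant and 2983 to 8689 in control oculomotor nucleus.

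The summed markers of midbrain dopamine and raphe serotonin neurons separated the same arrays, at 8574 to 10540 in mutant against 7413 to 7936 in control oculomotor nucleus. The higher sum came mostly from Ddc (means of 4277 against 2999) and Slc6a4. Of 5 tested 1 was called higher, 0 were called lower and 3 had an unadjusted p under 0.05. Over all probe sets 1.04% were called higher, 0.435% lower, and 14.9% had an unadjusted p under 0.05. Slc6a4, the serotonin transporter gene, averaged 2242 ± 350 in mutants and 1250.0 ± 123 in controls (SD, n = 3 each), a log2 fold change of 0.82 ± 0.17 (limma, adjusted p = 0.0212) with every mutant array above every control array. Ddc, for an enzyme of both transmitters, was not called (0.50 ± 0.15, adjusted p = 0.106) but had every mutant array above the controls. The dopamine neuron genes did not follow the sum. Nr4a2, a transcription factor gene, had every mutant array below the controls (-0.49 ± 0.18, limma, adjusted p = 0.190). Slc6a3, the dopamine transporter gene, stood at -0.31 ± 0.17 (adjusted p = 0.411) and Th at 0.04 ± 0.13 (adjusted p = 0.917), both with overlapping arrays. Meningeal markers summed to 13607 to 14341 in mutants against 11988 to 13037 in controls, and limma called 0 of 9 (3 with an unadjusted p under 0.05). That sum is mostly Ptgds, at 11193 ± 394 in mutants and 9166 ± 634 in controls (0.29 ± 0.14, adjusted p = 0.332). Of the others, 6 had negative log2 fold changes, and the median of the 9 was -0.10, beside -0.01 over all probe sets. Among the 6 were Ogn (-0.50 ± 0.17, adjusted p = 0.148) and Igfbp4 (-0.39 ± 0.17, adjusted p = 0.281). Both had all mutant arrays below the controls, where 24.0% of all probe sets were separated in 1 direction or the other. The part of these cell types in the Tac2 difference was not tested.

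The other precursors were not called between genotypes in the oculomotor nucleus. Penk was higher in mutants by 0.34 ± 0.12 (adjusted p = 0.170, unadjusted p = 0.0111), with overlapping arrays. Tac1 differed by -0.08 ± 0.19, Nts by 0.00 ± 0.13 and Grp by 0.00 ± 0.19, and their 95% intervals were -0.49 to 0.32, -0.28 to 0.27 and -0.39 to 0.39. Pdyn, from the fit without a filter, differed by -0.12 ± 0.21.

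In spinal cord 0 of 5 precursors were called between genotypes in limma, beside 0.0221% of all probe sets. An unadjusted p under 0.05 was found for 1 of the 5, beside 11.7% of all probe sets. Tac2 averaged 1302 ± 336 in mutants (n = 3) and 1355 ± 322 in controls (SD, n = 2), a difference of -0.06 ± 0.37 whose 95% interval ran from -0.84 to 0.71. Tac1, the gene with the small unadjusted p, had signals of 1105, 1064 and 1214 in mutants, against 1704 and 1467 in controls. All 3 mutant arrays lay below both controls, as 27.5% of probe sets were separated in 1 direction or the other, and the log2 fold change was -0.48 ± 0.21 (adjusted p = 0.390, unadjusted p = 0.0375). Whether the genotype difference of Tac2 itself differed between regions was tested too. The mutant minus control difference in the oculomotor nucleus minus that in spinal cord was -1.72 ± 0.49 on the log2 scale (95% interval -2.76 to -0.68, unadjusted p = 0.00261). It was the lowest value of all probe sets (-1.25 with an offset 4 times larger) and was not called after adjustment (adjusted p = 0.668). In that test limma called 0 of 13575 probe sets (0%), while 835 had an unadjusted p under 0.05.

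Between 10 and 6 weeks in mutants no precursor was called in either region. In the oculomotor nucleus 0.0221% of all probe sets were called. There 1 of 5 precursors had an unadjusted p under 0.05, beside 8.82% of all probe sets. That was Penk, with 1712, 1876 and 1389.7 at 10 weeks against 1226, 1168 and 1357 at 6 weeks, every 10-week array above every 6-week one, as in 14.2% of probe sets separated either way. Its log2 fold change was 0.39 ± 0.12 (adjusted p = 0.288, unadjusted p = 0.00425). Tac1 stood at -0.40 ± 0.19 (adjusted p = 0.568), with 1780.3, 1007 and 1047 at 10 weeks against 1584, 1546 and 1786 at 6 weeks, where 1 of the 10-week arrays lay among the 6-week ones. Tac2 averaged 90.0 ± 30.4 at 10 weeks and 113 ± 63.4 at 6 weeks (SD), a log2 fold change of -0.21 ± 0.33 (adjusted p = 0.890, 95% interval -0.90 to 0.49).

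In mutant spinal cord 0 of 5 precursors were called between the ages in limma, beside 2.76% of all probe sets. None had an unadjusted p under 0.05, beside 20.2% of all probe sets. The log2 fold changes were 0.26 ± 0.33 for Tac2, -0.15 ± 0.19 for Grp, -0.09 ± 0.13 for Nts, -0.01 ± 0.12 for Penk and -0.01 ± 0.19 for Tac1. The age difference did not differ detectably between regions for any precursor (0 of 5 called, 0.368% of all probe sets), and the smallest unadjusted p, 0.0289, was that of Penk (0.40 ± 0.17, adjusted p = 0.249).

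**Figure D3:**
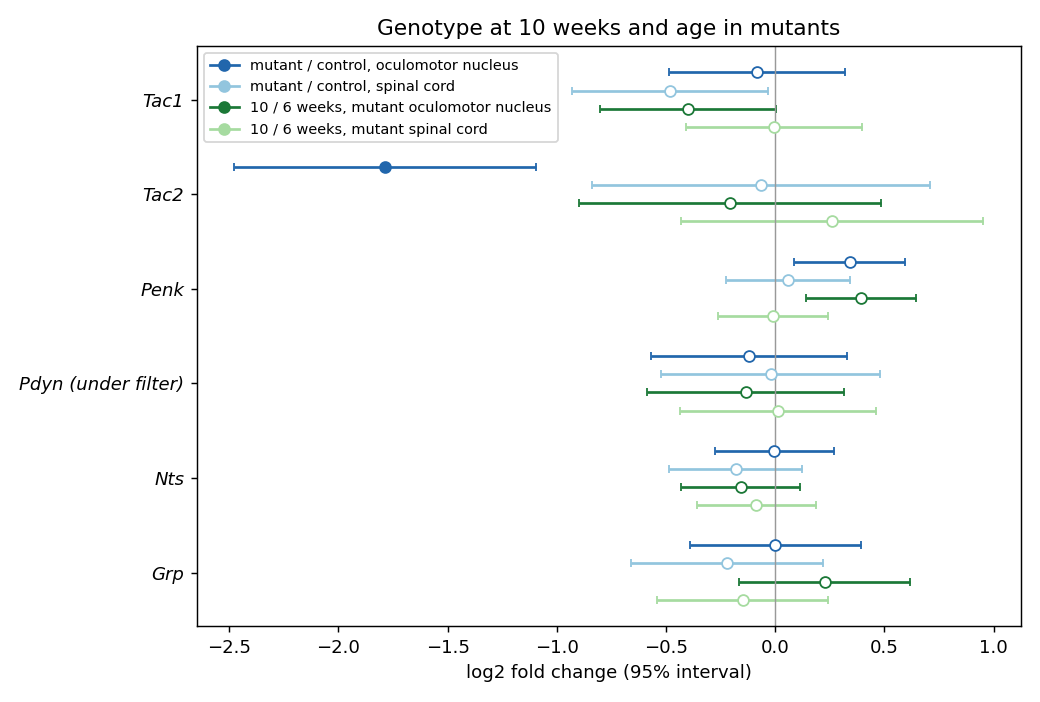
Log2 fold change of each precursor (points) with its 95% interval for mutant over control at 10 weeks and for 10 over 6 weeks in mutants, in each region; the filled point was called. Tac2 in the oculomotor nucleus (-1.78, mutant over control) is the 1 filled point and lies left of all others.

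The genes whose pattern over the 17 arrays lay closest to that of Tac2, by the root mean square difference in log2 signal after each was centred on its mean, were Prph (0.667), Ogn (0.735) and Hoxa5 (0.738), among 8067 genes. For comparison, Tac2 lay 1.57 from a flat line. Prph encodes the neurofilament protein peripherin, Ogn a matrix protein of fibroblasts and Hoxa5 a transcription factor of the cervical and thoracic cord. Like Tac2, each was lower in the oculomotor nucleus in all 3 conditions, which follows largely from picking them for likeness on these same arrays. Prph had 34.2 to 94.9 in 10-week mutant oculomotor nucleus against 661 to 763 in spinal cord, and 83.8 to 88.7 in control oculomotor nucleus against 670.5 to 707 in spinal cord. Between genotypes in the oculomotor nucleus they differed by -0.27 ± 0.20, -0.50 ± 0.17 and -0.54 ± 0.36, and none was called (adjusted p = 0.580, 0.148 and 0.526). Relative to its own mean, Tac2 stood above them on control oculomotor replicates 1 and 2 and among them on control replicate 3.

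**Figure D4:**
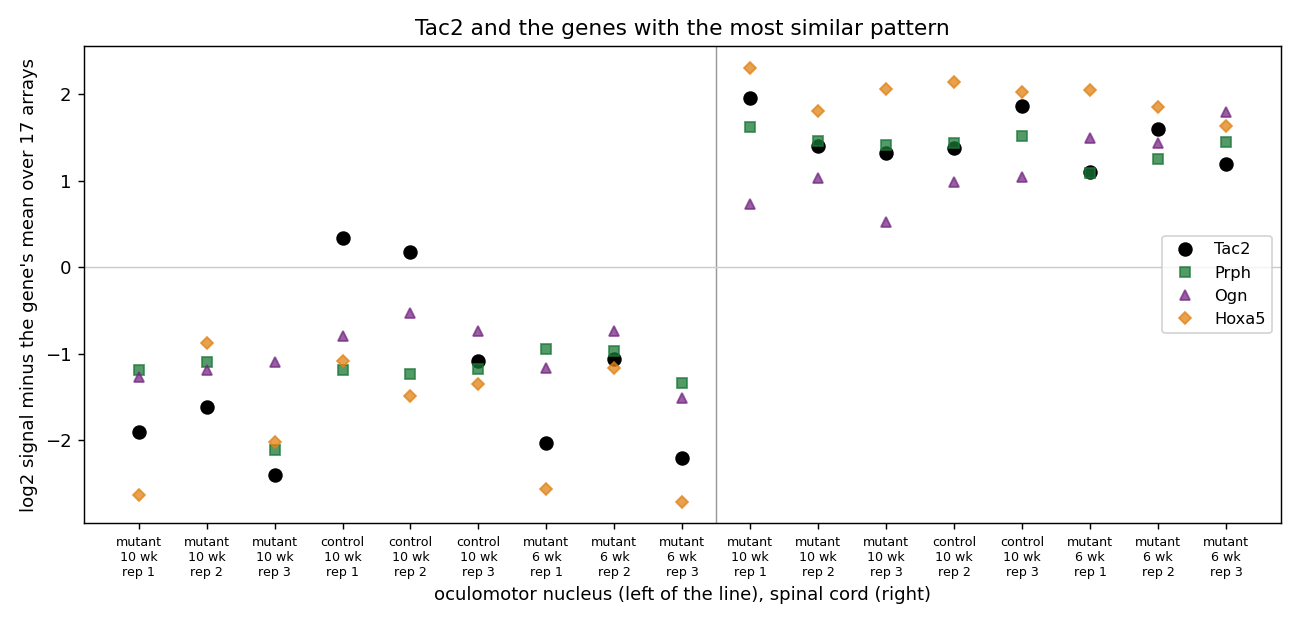
Log2 signal minus the gene's own mean (vertical axis) of Tac2, Prph, Ogn and Hoxa5 on each of the 17 arrays, oculomotor arrays left of the line and spinal cord arrays right of it. Tac2 lies above 0 on control oculomotor replicates 1 and 2 and below -1 on the other oculomotor arrays.

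The nearest genes to the other called precursors lay much closer in log2 units, since those precursors varied less. Penk was nearest to Ginm1 (0.154), Acly (0.156), which makes the acetyl-CoA used for fatty acids, and Sptssa (0.172), a subunit of the enzyme that starts sphingolipid synthesis. Nts was nearest to Rhog (0.138), a small GTPase gene, Kat2b (0.138), a histone acetyltransferase gene, and Plaat3 (0.144), a phospholipase gene. Grp was nearest to Sh3bp5 (0.167), Prkag2 (0.175), which encodes a subunit of the AMP-activated kinase, and Bet1 (0.184), which acts in vesicle traffic. The flat-line distances were 0.348 for Penk, 0.424 for Nts and 0.335 for Grp.

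Of 17 genes for receptors of these peptides or their partner proteins, 10 were tested. Between the regions, 3 were called higher in the oculomotor nucleus in 10-week mutants and 3 lower, 2 higher and 1 lower in controls, and 3 higher and 1 lower in 6-week mutants. In the same order of conditions, higher calls made up 9.30%, 6.62% and 12.2% of all probe sets, and lower calls 9.99%, 6.94% and 11.7%. The median log2 fold changes of the receptor genes were -0.15, -0.04 and 0.24, beside 0.00, 0.01 and 0.03 over all probe sets. Tacr3, the receptor that prefers neurokinin B, was called higher in the oculomotor nucleus in 10-week mutants and controls. In 10-week mutants its signals were 389, 388 and 432 in the oculomotor nucleus against 194, 159 and 193 in spinal cord, with no overlap. A relation between its level and that of Tac2 was not tested. The log2 fold change of Tacr3 was 1.05 ± 0.14 in 10-week mutants (limma, adjusted p = 2.95e-05), 0.50 ± 0.16 in controls (0.0393) and 0.35 in 6-week mutants (0.0761, not called). A further Tacr3 probe set was under the filter.

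Ntsr1, a receptor for neurotensin, was higher in the oculomotor nucleus in all 3 conditions. Its signals were 196, 146 and 208 in 10-week mutant oculomotor nucleus against 139.8, 116 and 103 in spinal cord, 226, 277 and 270.3 in control oculomotor nucleus against 83.3 and 87.4 in spinal cord, and 238, 278 and 204 in 6-week mutant oculomotor nucleus against 93.9, 70.6 and 77.1 in spinal cord. The regions did not overlap in any condition, and the log2 fold changes were 0.52 (adjusted p = 0.0326), 1.35 (4.95e-05) and 1.33 (1.12e-05). Another neurotensin receptor gene, Ntsr2, was called in none of the 3.

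Ramp1, which joins the calcitonin receptor-like receptor to form the CGRP receptor, was lower in all conditions, by a log2 fold change of -0.63, -0.59 and -0.62 (adjusted p = 8.02e-04, 0.00442 and 7.64e-04), while Calcrl itself was under the filter. Of the opioid receptor family, Oprl1 (the nociceptin receptor) was higher in 10-week (0.43) and 6-week mutants (0.37), though its 3 probe sets were not all called, Oprk1 was not called, and Oprm1 and Oprd1 were under the filter with Tacr1, Grpr, Nmbr and Calcr. Ramp3 was higher in 6-week mutants (0.89). Sort1, a sorting receptor that binds neurotensin, was lower in 10-week mutants (-0.41), with its other probe sets at 0.21 and -0.63. Tacr2 was lower there too (-0.50) and is named after its value was seen. By limma 0 of 10 receptor genes were called between genotypes, beside 1.47% of all probe sets in the oculomotor nucleus and 0.0221% in spinal cord. In each region 2 had an unadjusted p under 0.05, beside 14.9% and 11.7% of all probe sets. Between ages 0 of 10 were called, beside 0.0221% and 2.76%. There 4 had an unadjusted p under 0.05 in the oculomotor nucleus (8.82% of all probe sets) and 3 in spinal cord (20.2%).

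Among genes that process precursors and fill dense core vesicles, more were called higher than lower in the oculomotor nucleus. Of 15 tested, 8 had calls for a higher and 1 for a lower level in oculomotor nucleus in 10-week mutants, 5 and 1 in controls, and 7 and 2 in 6-week mutants, with medians of 0.38, 0.24 and 0.32. The other 6, 9 and 6 were not called. Over all probe sets 9.30%, 6.62% and 12.2% were called higher in these conditions, and 9.99%, 6.94% and 11.7% lower. Scg2, which encodes secretogranin II of the vesicle core, had signals of 7413 to 7518 in 10-week mutant oculomotor nucleus against 2934 to 3576 in spinal cord, and its log2 fold change was 1.18, 0.77 and 0.84 in the 3 conditions. Cadps2, which primes these vesicles for release, was higher by 1.23, 1.32 and 1.11, and the vesicle membrane gene Ptprn by 0.48, 0.42 and 0.55. Cpe, the carboxypeptidase that trims the cut peptides, was called higher in 10-week (0.47) and 6-week mutants (0.55). Cpd, a related carboxypeptidase of the Golgi, was lower throughout (-0.93, -0.69 and -0.77).

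Chgb, which encodes the granule protein chromogranin B, was the 1 gene of that list called between genotypes, where 1.04% of all probe sets were called higher in the oculomotor nucleus. In the oculomotor nucleus its signals were 5938, 5932 and 5506 in mutants against 4242, 4534 and 4281 in controls, without overlap, a log2 fold change of 0.41 ± 0.09 (adjusted p = 0.0200). It was also higher in the oculomotor nucleus than in spinal cord (0.59, 0.35 and 0.32). Chga, for chromogranin A, was higher at 10 than at 6 weeks in mutant spinal cord (0.39 ± 0.10, adjusted p = 0.0431) and was called in no regional comparison. Among 8 tested peptide-degrading enzymes, Ece2 was higher in 10-week (1.05) and 6-week mutants (0.96), with another of its probe sets under the filter. Mme, for neprilysin, which cleaves enkephalins and substance P, was lower in 6-week mutants (-0.48). In controls limma called 0 of the 8, beside 13.6% of all probe sets. There 1 had an unadjusted p under 0.05, beside 26.8% of all probe sets. In 10-week and 6-week mutants 19.3% and 23.9% of all probe sets were called.

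**Figure D5:**
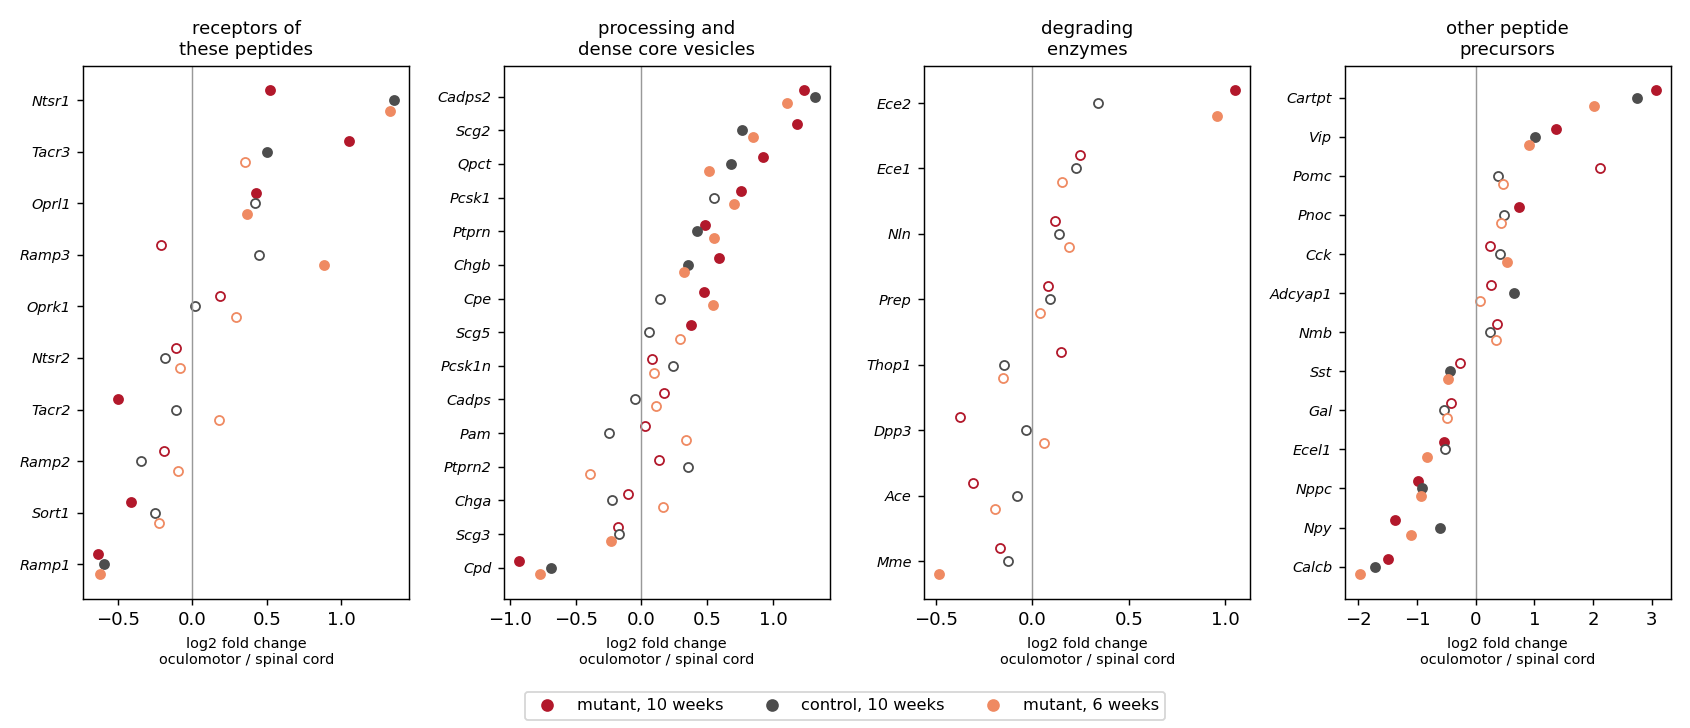
Log2 fold change, oculomotor nucleus over spinal cord, of the tested receptor, processing, degrading enzyme and other precursor genes (a panel each, with its own horizontal scale) in 10-week mutants, controls and 6-week mutants; filled points were called. Ntsr1 and Scg2 lie right of 0 and Ramp1, Cpd and Calcb left of it in all 3 conditions.

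Other neuropeptide precursors moved in both directions between the regions. Of 13 tested, 3 higher and 4 lower levels in oculomotor nucleus were called in 10-week mutants, 3 and 4 in controls, and 3 and 5 in 6-week mutants. Calcb, which encodes the second form of calcitonin gene-related peptide and also stands in the motor neuron list, had signals of 153, 149.8 and 127 in 10-week mutant oculomotor nucleus against 476, 415 and 449 in spinal cord. No oculomotor array overlapped spinal cord in any condition, and its log2 fold change was -1.49, -1.71 and -1.98. Npy, also in the dorsal horn list, was lower with log2 fold changes of -1.38, -0.61 and -1.10, and Nppc, which encodes C-type natriuretic peptide, with -0.98, -0.92 and -0.94. Cartpt (3.07, 2.75 and 2.01) and Vip (1.37, 1.01 and 0.91) were higher. Of these genes only Cartpt was called in another comparison: it was higher at 10 than at 6 weeks in mutant oculomotor nucleus (0.97 ± 0.15, adjusted p = 0.0198), by more than in spinal cord (1.05, adjusted p = 0.0465).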

How the data were processed

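Total RNA of 18 mouse samples was hybridised to Affymetrix 430A arrays, and the table the authors deposited holds intensity signals from Microarray Suite 5.0, per the labels and the series' design text (MAS5 in the submitters' processing notes). They are linear and already scaled: the 2% trimmed mean of the 17 arrays used lay between 500.13 and 500.16. The table held 22690 probe sets, of which 64 controls were removed, and 0 columns of per-sample values were left unused. An offset of 25, which is 5% of the trimmed mean, was added before log2, and no further normalization was applied. The lowest 40% of probe sets by mean log2 signal were left out (limit 7.38).

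The 6 group means were fitted in R 4.3.3 with limma 3.58.1, using its functions lmFit, contrasts.fit and (with a trend) eBayes, which left 11 residual degrees of freedom. P-values were adjusted by Benjamini-Hochberg over 13575 probe sets in each of 9 contrasts, and the limma adjusted p is the one given throughout. Symbols came from the array's annotation, updated through gene identifiers. The steps were tested on simulated data.

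The members, lists and tests were chosen with earlier results of these data known. Named from each list were up to 4 genes per contrast with the smallest adjusted p among those called, by the probe set with the highest mean signal, and 3 genes per called precursor with the nearest pattern; a list gene named for not being called or for being under the filter is given for its known role, after its value was seen. Alternatives were quantile normalization, median centring, a larger offset, no filter or one of 60%, no trend, a fit of a contrast's arrays alone, a replicate block, all 18 arrays, leaving out both arrays with high pituitary hormone signals, the submitters' kind of rule (every pairwise comparison in 1 direction and over 2-fold) and leaving out each array. Deviations from the group mean were correlated between same-numbered arrays of different groups (40 pairs, correlations from -0.10 to 0.13, median 0.02). With 2 or 3 arrays per group these deviations mirror each other, so the pairs are not independent. The 80 differently numbered pairs ran from -0.16 to 0.16 (median -0.02). Correlations over 0.1 were found in 6 of the 40 and 2 of the 80. Replicate numbers were not taken as pairs.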

Additional observations from a re-analysis of the deposited data

How the results depend on the processing

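Of 799 values of single precursors under the alternatives, 768 kept their side of the threshold and, where called, their direction, 27 lost a call, 3 gained one and 1 turned round. Most of the 799 belong to comparisons not called in the main fit, where keeping the side means staying uncalled. The call of Penk between regions in 10-week mutants was lost in 10 of 17 alternatives. With all 18 arrays, thus with control spinal cord replicate 1, the precursors called numbered 1 in each regional comparison (Tac2, against 3 in 10-week mutants, 3 in controls and 4 in 6-week mutants) and 0 between genotypes in the oculomotor nucleus (against 1), and Nts in controls turned to 0.15 (adjusted p = 0.849). With the rule of every pairwise comparison in 1 direction and over 2-fold, 1 precursor passed in each regional comparison, and it was Tac2. Leaving out 1 array moved the count between genotypes in the oculomotor nucleus over 0 to 1, and Tac2 there over -2.23 to -1.52. With the replicate block no precursor gained or lost a call, and Tac2 between genotypes had -1.78 (adjusted p = 0.00517). Counts over all probe sets moved more: between genotypes in the oculomotor nucleus 200 became 1 with all 18 arrays and 390 in a fit of that contrast's arrays alone, in spinal cord 3 became 0 to 51, between ages 3 became 0 to 14 in the oculomotor nucleus and 374 became 0 to 427 in spinal cord, the age by region count of 50 fell to 0 in some fits, and the regional counts of 2619, 1841 and 3239 became 209, 314 and 310 with all 18 arrays. Median centring changed the split of higher and lower calls from 1263 and 1356 to 1488 and 1110 in 10-week mutants, from 1656 and 1583 to 1251 and 1897 in 6-week mutants, from 242 and 132 to 129 and 298 between ages in spinal cord and from 19 and 31 to 18 and 2 for age by region. The causes of these shifts were not tested.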
